A study of Mus musculus with 6 samples.

Results

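Expression of 10 genes of the BCL2 family was examined in mouse leukemia cells driven by MLL-AF9. The members were taken by gene symbol from the 26082 names in the expression table, and all 10 had an entry. They were 3 pro-survival genes (Bcl2, Bcl2l1 and Mcl1), 2 effector genes (Bax and Bak1) and 5 BH3-only genes (Bbc3, Pmaip1, Bcl2l11, Bid and Bmf). RNA-Seq had been performed on bone marrow leukemia cells of C57BL/6J mice, isolated with a cell sorter. Of the 6 samples, 3 came from mice given vehicle and 3 from mice given DS-5272, an inhibitor of the binding of MDM2 to p53, by mouth at 80 mg/kg, each 24 h before collection. The cells of both groups came from wild-type c-Kit+ bone marrow progenitors that carried the fusion gene MLL-AF9 and, after serial passage through mice, were given to recipients that were not irradiated. The age of the mice was not given in the sources used here. Neither the labels nor the methods say whether each sample was 1 mouse or a pool, so the p-values below measure the spread between these samples.

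Proteins of this family control the permeability of the mitochondrial outer membrane. BCL2, BCL-XL (encoded by Bcl2l1) and MCL1 hold cells alive by binding the effectors BAX and BAK and the BH3-only proteins, and BAX and BAK form the pores that release cytochrome c. BH3-only proteins carry stress signals to them, and Bbc3 (PUMA), Pmaip1 (NOXA) and Bax are long known as p53 target genes. MCL1 is a short-lived protein on which myeloid cells, neutrophils included, depend for survival.

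The unit was FPKM, fragments scaled to transcript length and to the mapped fragments of the sample, so levels of different genes can be set side by side. Fold changes are differences in log2(FPKM + 1), a scale on which changes at low levels look smaller than they are. A gene was called changed at a limma p adjusted over all 11130 tested genes (mean of at least 1 FPKM) of under 0.05. All 10 members passed that filter. The FPKM sum differed between the samples, at 445316, 492100 and 501241 in vehicle replicates 1 to 3 and 499229, 579884 and 661184 in DS-5272 replicates 1 to 3. Relative depth was estimated from the most frequent FPKM ratio to vehicle replicate 1 among genes near 0 (18.0% to 22.1% of these genes lay at it). With vehicle replicate 1 set to 1, it was 0.808 and 0.885 in vehicle replicates 2 and 3 and 0.746, 0.652 and 0.539 in DS-5272 replicates 1 to 3. Each vehicle sample was thus deeper than each DS-5272 sample, and no counting error could be derived from FPKM.

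The label of the cells was checked against markers. The joined entry that holds Hoxa9 and Hoxa10 was at 204 to 290 FPKM and Meis1 at 66.1 to 110 FPKM in the 6 samples, and the fusion gene was not measured. Of 9 leukemia and progenitor markers tested, 2 rose and 4 fell, against 24.2% and 22% of all genes tested. Mpo and Elane, enzymes of primary granules, fell by 5.07 and 2.54 on the log2 scale (adjusted p = 0.00136 and 0.00173), and the other falls were Kit and Ctsg. Ctsg was the most abundant of the list by the mean over all 6 samples (1593, 1447 and 1436 FPKM with vehicle and 1138, 788 and 523 FPKM with DS-5272), though Elane exceeded it in vehicle replicates 2 and 3 (1800 and 2128 FPKM) and Itgam in DS-5272 replicate 3. The Ctsg call was lost with no filter on low FPKM (0.0780) and without vehicle replicate 1 (-0.89, 0.0846), 2 (-0.96, 0.0830) or 3 (-0.97, 0.0755) or DS-5272 replicate 2 (-0.95, 0.0719). Itgam, which encodes CD11b, rose from 140, 175 and 190 FPKM to 530, 646 and 1087 FPKM (adjusted p = 0.00306). Mef2c was at 0.295, 0.115 and 0.0984 FPKM with vehicle and 1.76, 2.45 and 1.54 FPKM with DS-5272 (log2 fold change 1.31, adjusted p = 0.00312). It reached the filter only through the DS-5272 samples, so it had to differ to be tested, and its call carries no weight. With replicate numbers entered as a block in the model, Myb fell as well (adjusted p = 0.116 without and 0.0369 with it). The summed FPKM of the list was 3973, 3956 and 4462 with vehicle and 2405, 2220 and 2194 with DS-5272. In bulk RNA, fewer cells of a type and less RNA per cell cannot be told apart, and the part of these markers in the results on the members was not tested.

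Of the 10 members, 4 rose with DS-5272, against 24.2% of all genes tested, and 0 fell, against 22% of all genes. No member was lower with DS-5272 at an unadjusted limma p under 0.05 either. The risers came from both sides of the family: Mcl1 and Bcl2l1 among the pro-survival genes, and Bcl2l11 and Bmf among the BH3-only genes. The median log2 fold change was 0.73 over the 10 members and 0.04 over all genes tested. In 6 members all 3 DS-5272 values lay above all 3 vehicle values, which was the case for 32.1% of all genes. With the replicate number as a block, 5 members rose (Bbc3 in addition), against 30.3% of all genes, and 0 fell, against 24.9%.

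**Figure D1:**
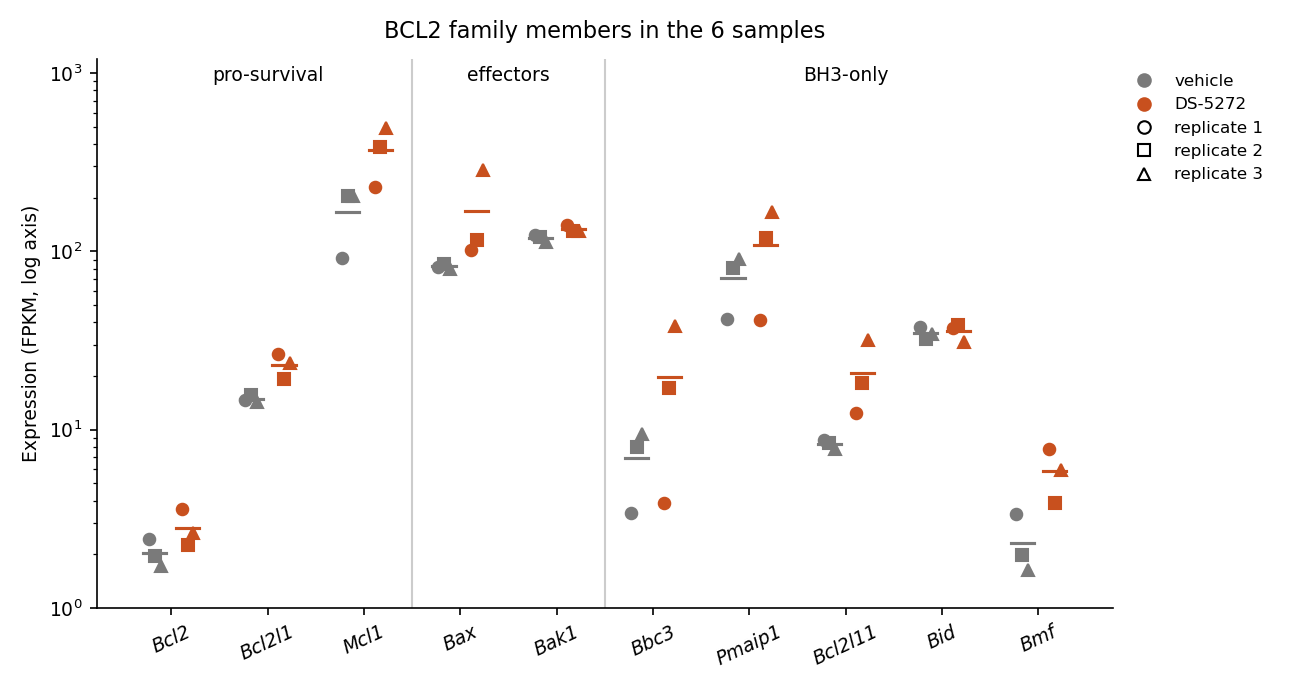
Expression of the 10 members in each of the 6 samples (FPKM, log axis), with vehicle in gray, DS-5272 in orange, a marker shape for each replicate number and a line at the group mean. Mcl1 had the highest mean in both groups, and the replicate 1 samples lay low for Mcl1, Bbc3 and Pmaip1.

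The 4 calls did not rest equally on all samples. Leaving out vehicle replicate 1 or DS-5272 replicate 2 left 2 members called (Bcl2l1 and Bmf), against 17.7% and 22.4% of all genes called higher in the same fits. Leaving out vehicle replicate 2 or 3 left 1 member (Bcl2l1), against 14.8% and 16.2% of all genes. Leaving out DS-5272 replicate 3 left Bcl2l1 and Bcl2l11 and added Bax, 3 members in all, against 19.9%. Leaving out DS-5272 replicate 1 gave 6 (Bax and Bbc3 in addition), against 26.3%. Scaling moved the whole distribution as well: the median log2 fold change of all genes was -0.08 at a common upper quartile and -0.21 at a common total, and upregulated genes made up 41.3% and 32.7% of the calls there, in place of 52.4%. At the common total 1 member (Bcl2l11) was called, against 15.4% of all genes tested called higher.

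Promoter sequence was examined for 2 factors that bear on the members, p53 itself, which DS-5272 releases from MDM2, and the FOXO factors, of which Bcl2l11 is a known target. Windows from 250 bases before to 50 after a transcription start (RefSeq, GRCm38.p6) were given for 9 of the 10 members, not Pmaip1, with 16 windows in all. The p53 half-site matched 2 of the 16 windows, in Bax and Bmf, and 8.36% of all 32851 windows. The FOXO motif GTAAACA, searched on both strands, matched 2 windows, in Bcl2l11 and Bbc3, and 3.65% of all windows. The 120 bases from 250 to 131 before these 4 starts are given below because they hold all 4 matches, in capitals, none of which overlapped another motif searched. They lie at chr7:45467029-45467148 on the minus strand (Bax, between 201 and 192 bases before its start, within an intron of Gm45808), chr2:118544718-118544837 on the minus strand (Bmf, between 213 and 204 before an inner start, intronic to the longer transcript), chr2:128125788-128125907 on the plus strand (Bcl2l11, between 227 and 221 before a start, outside annotated genes) and chr7:16310011-16310130 on the plus strand (Bbc3, between 167 and 161 before an inner start, intronic, with the motif on the other strand).
Bax: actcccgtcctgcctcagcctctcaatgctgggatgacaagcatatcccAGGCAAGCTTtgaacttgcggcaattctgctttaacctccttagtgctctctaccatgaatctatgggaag
Bmf: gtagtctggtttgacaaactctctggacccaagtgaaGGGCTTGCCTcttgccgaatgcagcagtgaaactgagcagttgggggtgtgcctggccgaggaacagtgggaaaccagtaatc
Bcl2l11: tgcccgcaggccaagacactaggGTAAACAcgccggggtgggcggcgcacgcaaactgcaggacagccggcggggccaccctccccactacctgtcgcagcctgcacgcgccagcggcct
Bbc3: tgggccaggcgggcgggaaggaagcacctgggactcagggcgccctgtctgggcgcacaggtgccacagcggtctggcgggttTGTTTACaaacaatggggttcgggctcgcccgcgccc
A match is a match of letters only. The same windows were searched for the E-box CACGTG (Bax and Bbc3; 7.15% of all windows), the NF-kB motif (Bbc3, with a pair of overlapping matches, Bcl2l1 and Bmf; 8.46%), and the motifs AP-1 (TGANTCA), CRE (TGACGTCA) and STAT (TTCNNNGAA), which matched 0 of the 16 windows and 7.81%, 1.79% and 8.30% of all windows. These motifs were chosen after the values of the members had been seen.

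Mcl1 (chr3:95658788-95663176 in GRCm38, plus strand) stood at 92.2, 204 and 206 FPKM in vehicle replicates 1 to 3, against 230, 384 and 494 FPKM in the DS-5272 samples in the same order. The groups did not overlap, but DS-5272 replicate 1 exceeded the upper vehicle samples by little, and vehicle replicate 1 was low. Its mean level was 167 ± 65.1 FPKM with vehicle and 370 ± 132 FPKM with DS-5272 (SD, n = 3 each). Mcl1 rose by 1.16 on the log2 scale (SE 0.39, adjusted p = 0.0493), just under the threshold. Between samples of the same replicate number the log2 difference was 1.31, 0.91 and 1.26, and with the block the adjusted p was 0.00123. The call was lost in 11 of 15 alternatives, among them that without vehicle replicate 1 (log2 fold change 0.78, adjusted p = 0.110), vehicle replicate 2 (1.35, 0.0700), vehicle replicate 3 (1.35, 0.0626), DS-5272 replicate 2 (1.10, 0.118) and DS-5272 replicate 3 (0.92, 0.135), and the adjusted p ranged from 0.00123 to 0.135 over all 15.

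Bcl2l1 (chr2:152780668-152831728, minus strand), which encodes BCL-XL, was at 14.6, 15.6 and 14.3 FPKM with vehicle and at 26.5, 19.2 and 23.6 FPKM with DS-5272. Vehicle samples were nearly level, and every DS-5272 sample lay above them. Bcl2l1 rose by 0.59 on the log2 scale (SE 0.13, 95% CI 0.28 to 0.91, adjusted p = 0.0121). This was the call that held in the most alternatives, 14 of 15. Among these 15 it was lost at the common total (log2 fold change 0.35, adjusted p = 0.169, range over the alternatives 0.00597 to 0.169). The 15 do not include the added limit of 1 on the log2 fold change, which Bcl2l1 did not reach.

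Bcl2 (chr1:106538178-106714274, minus strand) had the lowest mean of the members in both groups. Its values were 2.43, 1.95 and 1.71 FPKM with vehicle and 3.59, 2.25 and 2.63 FPKM with DS-5272, and the groups overlapped. The log2 fold change of 0.33 (SE 0.17, 95% CI -0.09 to 0.74) did not pass the test (adjusted p = 0.162), and it was 0.19 without DS-5272 replicate 1 (adjusted p = 0.350; range over 14 alternatives 0.0771 to 0.637). Its exons overlap those of D630008O14Rik on the opposite strand, which was at 0.182 to 0.904 FPKM. No strand setting is given for the FPKM, so fragments of an overlapping gene can be part of a value, here and for the overlaps named for other members.

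Both effectors were abundant in vehicle samples. Bax (chr7:45461697-45466898, minus strand) was at 82.3, 85.1 and 80.0 FPKM with vehicle and at 101, 117 and 287 FPKM with DS-5272. The groups did not overlap, and DS-5272 replicate 3 stood far above the other samples. Its log2 fold change was 0.86 (SE 0.37, 95% CI -0.02 to 1.74, adjusted p = 0.0962), and with the block the adjusted p was 0.0531. Without DS-5272 replicate 3 the change was smaller and passed the test (0.40, adjusted p = 0.0271), and without DS-5272 replicate 1 it was larger and passed (1.14, adjusted p = 0.0437), within a range of 0.0271 to 0.188 over the 15 alternatives. An exon of Bax overlaps Gm45808 on the same strand, which has no entry under that name.

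Bak1 (chr17:27019810-27029009, minus strand) was at 124, 121 and 113 FPKM with vehicle and at 140, 130 and 129 FPKM with DS-5272. These groups did not overlap either, but they lay close together. Bak1 differed by 0.16 on the log2 scale (SE 0.09, 95% CI -0.07 to 0.38, adjusted p = 0.202), and its direction turned at the common total (-0.11) and with quantile normalization (-0.14). Exons of Bak1 and of Ggnbp1 (1.07 to 2.55 FPKM) overlap on opposite strands.

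Among the BH3-only genes, Bcl2l11 and Bmf rose. Bcl2l11 (chr2:128126038-128162547, plus strand) encodes BIM, which binds all the main pro-survival proteins. It was at 8.78, 8.47 and 7.79 FPKM with vehicle and at 12.4, 18.3 and 31.8 FPKM with DS-5272. Every DS-5272 sample exceeded the vehicle samples, though by very different amounts. Bcl2l11 rose by 1.13 on the log2 scale (SE 0.30, 95% CI 0.40 to 1.85, adjusted p = 0.0228). The adjusted p rose to 0.0564, 0.0662 and 0.0678 without vehicle replicate 1, 2 and 3 and to 0.0515 without DS-5272 replicate 2, with log2 fold changes of 1.16, 1.14, 1.08 and 1.17, and its range over the 15 alternatives was 0.00835 to 0.0678. Its values are sums of 2 entries, of which the smaller held 0.230 to 0.904 FPKM.

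Bmf (chr2:118528757-118549687, minus strand), a BH3-only gene linked to detachment and cytoskeletal stress, was at 3.37, 1.98 and 1.63 FPKM with vehicle and at 7.84, 3.90 and 5.91 FPKM with DS-5272. The groups did not overlap, and the replicate 1 sample was the highest of each. Bmf rose by 1.04 on the log2 scale (SE 0.27, 95% CI 0.39 to 1.69, adjusted p = 0.0209). The call was lost at the common total (0.94, adjusted p = 0.0751) and without vehicle replicate 2 (0.98, 0.0718), vehicle replicate 3 (0.89, 0.0694) or DS-5272 replicate 3 (1.02, 0.0557), and the adjusted p ranged from 0.00409 to 0.0751 over 14 alternatives.

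Bbc3 (chr7:16308393-16318205, plus strand) was at 3.39, 8.03 and 9.43 FPKM with vehicle and at 3.85, 17.2 and 38.3 FPKM with DS-5272. DS-5272 replicate 1 lay below vehicle replicates 2 and 3, whereas the other DS-5272 samples lay above all vehicle samples. Its log2 fold change was 1.02 with a wide interval (SE 0.75, 95% CI -0.75 to 2.80, adjusted p = 0.290). Within replicate numbers the log2 difference was 0.14, 1.01 and 1.91, and with the block Bbc3 passed the test (SE 0.32, adjusted p = 0.0376). Omission of DS-5272 replicate 1 gave 1.84 (adjusted p = 0.0252), that of vehicle replicate 1 gave 0.64 (0.563) and that of DS-5272 replicate 3 gave 0.33 (0.700), and 0.0252 to 0.700 was also the range over all 15 alternatives.

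Pmaip1, whose product NOXA binds MCL1, resembled Bbc3 over the samples. It was at 41.6, 81.2 and 91.2 FPKM with vehicle and at 41.4, 118 and 166 FPKM with DS-5272. Both replicate 1 samples were equally low, and the groups overlapped. The log2 fold change of 0.46 (SE 0.54, 95% CI -0.81 to 1.74) did not pass the test (adjusted p = 0.498), nor did it with the block (adjusted p = 0.0631). It was 0.12 without vehicle replicate 1 (adjusted p = 0.880), 0.30 without DS-5272 replicate 2 (0.732), 0.05 without DS-5272 replicate 3 (0.942) and 1.04 without DS-5272 replicate 1 (0.0563), and the adjusted p was 0.0563 to 0.942 over all 15 alternatives. Rescaling gave a log2 fold change of 0.33 at a common upper quartile, 0.20 at the common total and 0.22 with quantile normalization.

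Bid (chr6:120891930-120916853, minus strand), whose product is cleaved by caspase-8, ranged from 32.3 to 37.8 FPKM with vehicle and from 30.9 to 38.7 FPKM with DS-5272. The groups overlapped. Its log2 fold change of 0.03 (95% CI -0.26 to 0.31, adjusted p = 0.861) turned below 0 in each of the 3 rescalings (-0.11, -0.23 and -0.10) and without vehicle replicate 2 (-0.02), DS-5272 replicate 1 (-0.01) or DS-5272 replicate 2 (-0.03), with an adjusted p of 0.346 to 0.963 over 15 alternatives. Exons of Bid overlap those of Bcl2l13 (11.7 to 15.3 FPKM) on the opposite strand.

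**Figure D2:**
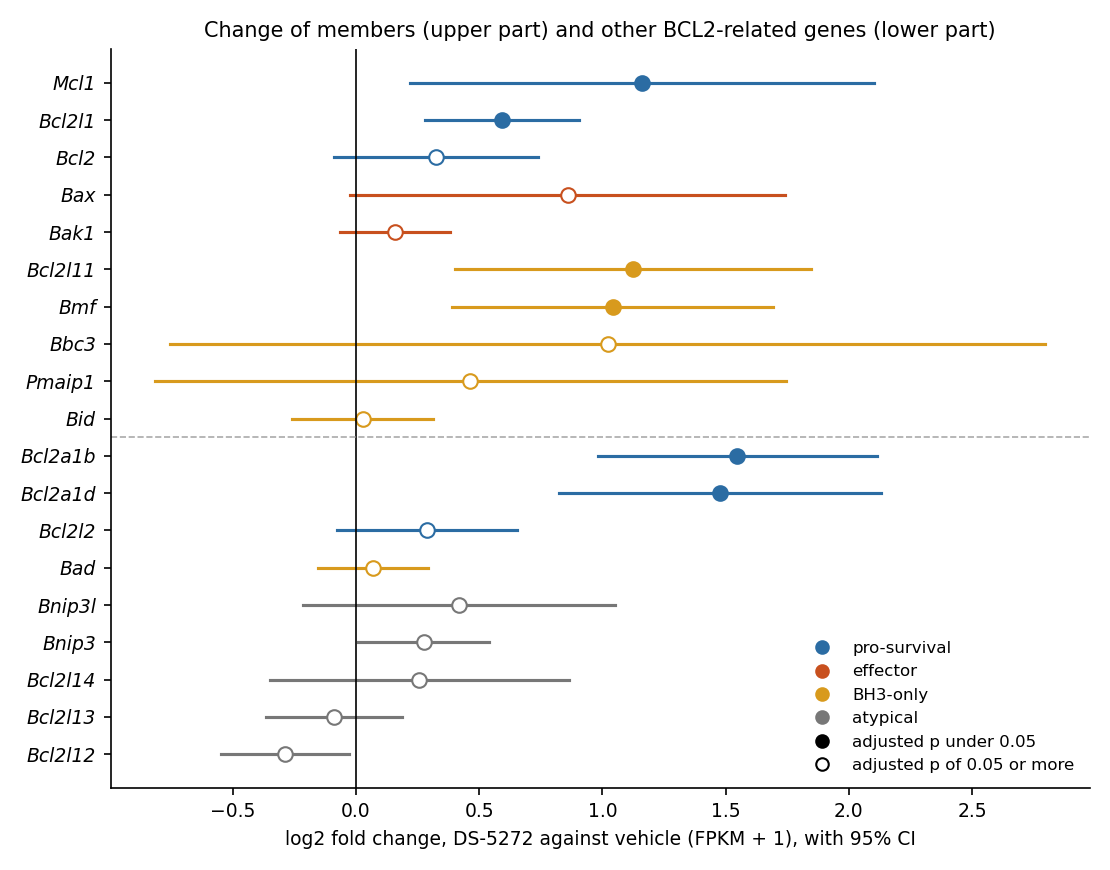
Log2 fold change of DS-5272 against vehicle on the FPKM + 1 scale (x axis) with its 95% confidence interval from limma, for the 10 members above the dashed line and 9 other BCL2-related genes below it, colored by class, with filled points at an adjusted p under 0.05. The widest interval was that of Bbc3, from -0.75 to 2.80, and the direction of Bak1 turned at the common total and with quantile normalization and that of Bid in all 3 rescalings.

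Samples of the same number were set side by side by their titles. The samples numbered 1 deviated together from their group means, whereas the deviations cannot show that those numbered 2 and 3 are pairs. Differences in Mcl1 were alike in the 3 pairs (0.91 to 1.31). Those in Bax (0.30, 0.45 and 1.83), Bbc3 and Bcl2l11 (0.45, 1.02 and 1.90) were largest in the pair numbered 3. Bmf differed by 1.02, 0.72 and 1.39, and Bak1 by 0.17, 0.11 and 0.19. The pair numbered 1 thus differed little in Bbc3 and Pmaip1 and clearly in Mcl1, Bcl2l1 and Bmf.

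**Figure D3:**
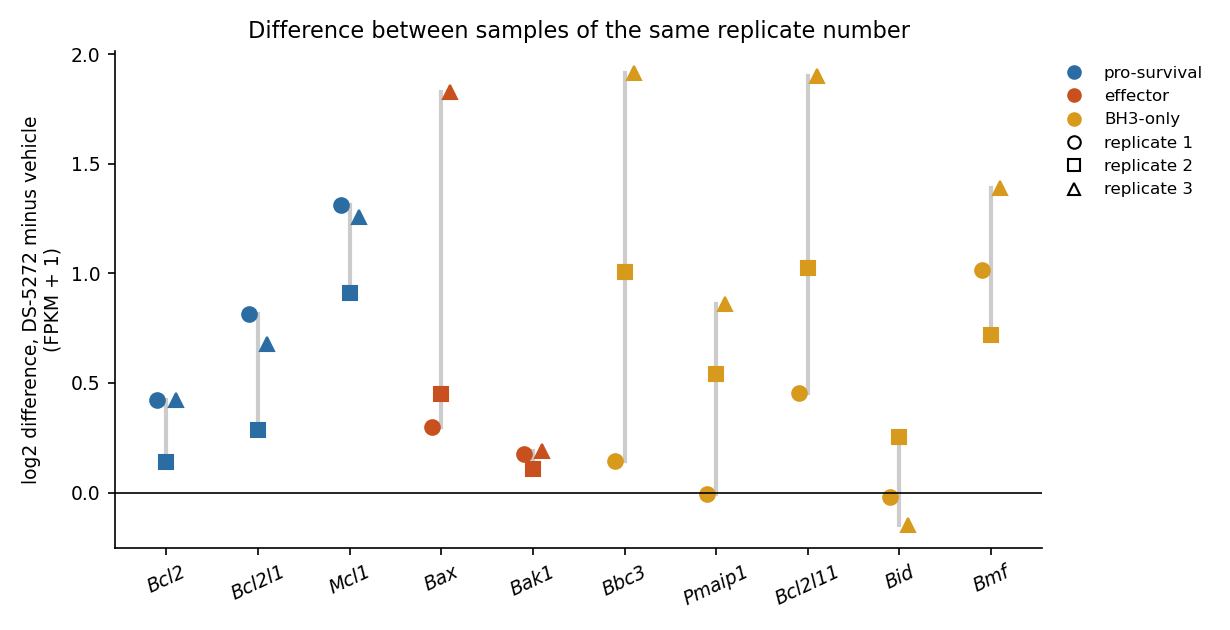
Log2 difference of DS-5272 minus vehicle (FPKM + 1) between samples of the same replicate number for each member, colored by class, with a marker shape for each number and a gray line from the lowest to the highest. Points for Mcl1 lie between 0.91 and 1.31, and those for Bbc3 between 0.14 and 1.91.

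The members had different patterns, described here by Pearson's r of log2(FPKM + 1) over the 6 samples, which includes the difference between the groups and is given without a test. Bbc3 and Pmaip1 had an r of 0.98, and Bax and Bcl2l11 one of 0.95. Bmf had an r of 0.95 with Bcl2, 0.95 with Bak1 and 0.93 with Bcl2l1, whereas it had 0.09 with Bbc3 and -0.11 with Pmaip1. Mcl1 was nearest to Bbc3 among the members (0.87). Over all genes tested, the 3 most like Bbc3 were Pibf1 (r = 0.999), Eif4e2 (0.999) and Dlst (0.998), and the 3 most like Mcl1 were Tom1 (0.996), Stfa2l1 (0.996) and Sys1 (0.995). Those most like Bcl2 were Bcl9 (0.996), the joined entry of Eif2ak2 and Gm6548 (0.993) and Gm12250 (0.992). Stfa2l1, a stefin expressed in neutrophils, was at 5.26, 70.1 and 77.7 FPKM with vehicle and at 158, 934 and 1503 FPKM with DS-5272.

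In the order of levels with vehicle, Mcl1 (167 ± 65.1 FPKM) came first, followed by Bak1 (119 ± 5.38), Bax (82.5 ± 2.54), Pmaip1 (71.3 ± 26.2), Bid (34.8 ± 2.79), Bcl2l1 (14.9 ± 0.671), Bcl2l11 (8.35 ± 0.507), Bbc3 (6.95 ± 3.16), Bmf (2.33 ± 0.918) and Bcl2 (2.03 ± 0.363; all mean FPKM ± SD, n = 3). Neighbours in this order whose ranges overlapped were Mcl1 and Bak1, Bax and Pmaip1, Bcl2l11 and Bbc3, and Bmf and Bcl2, and those of the other neighbours were separate. With DS-5272 the order was the same except that Bax (168 ± 103 FPKM) had a higher mean than Bak1 (133 ± 5.83 FPKM). That exception rested on DS-5272 replicate 3 (287 against 129 FPKM), and in replicates 1 and 2 Bax was below Bak1 (101 against 140 and 117 against 130 FPKM). There all neighbours overlapped apart from Pmaip1 and Bid, Bid and Bcl2l1, and Bmf and Bcl2. The pro-survival side was thus almost all Mcl1, which made up 84.4% to 92.8% of its FPKM sum with vehicle and at least 88.5% with DS-5272.

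Pro-death against pro-survival transcripts were compared as summed FPKM. The sum of the 3 pro-survival genes was 109, 222 and 222 FPKM with vehicle and 261, 406 and 520 FPKM with DS-5272. The sum of the 7 pro-death genes was 301, 338 and 338 FPKM with vehicle and 344, 443 and 690 FPKM with DS-5272. Both sums were higher in every DS-5272 sample than in any vehicle sample. The ratio of pro-death to pro-survival FPKM was 2.76, 1.52 and 1.52 with vehicle and 1.32, 1.09 and 1.33 with DS-5272, with means of 1.93 ± 0.712 and 1.25 ± 0.134 (SD, n = 3 each). It was lower in each DS-5272 sample than in each vehicle sample, with no test made. The direction turned with geometric means of FPKM + 1 in place of sums, where the difference in mean ratio, DS-5272 minus vehicle, was 0.0122. Without Mcl1 the ratio was 17.7, 19.2 and 21.1 with vehicle and 11.4, 20.6 and 26.3 with DS-5272, so the groups overlapped and the difference in means was 0.15 in place of -0.69. Without vehicle replicate 1 the difference was -0.28. FPKM describe transcripts, and the amounts of protein were not measured in these files.

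**Figure D4:**
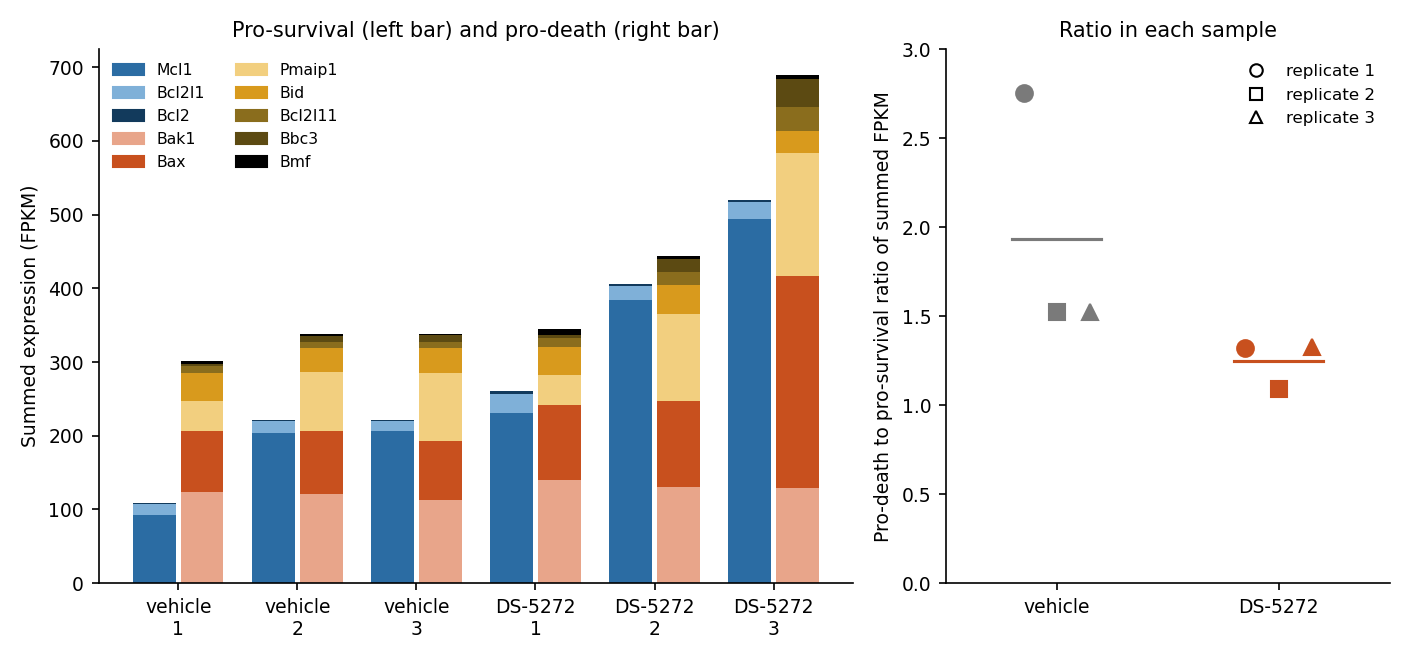
Summed FPKM of the pro-survival genes (left bar, blue) and pro-death genes (right bar, pink to black) in each sample, stacked by gene, and the ratio of the right to the left sum in each sample with a line at the group mean. The ratio spans 1.52 to 2.76 with vehicle and 1.09 to 1.33 with DS-5272, and the blue bars are mostly Mcl1.

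Ratios of single partners had different patterns. Bax to Bcl2l1 was 5.63, 5.45 and 5.59 as a ratio of FPKM with vehicle and 3.83, 6.06 and 12.2 with DS-5272, so the DS-5272 samples lay on both sides of the vehicle samples. Pmaip1 to Mcl1 was 0.451, 0.398 and 0.443 with vehicle and 0.180, 0.308 and 0.337 with DS-5272, lower in each DS-5272 sample. Bbc3 to Mcl1 was 0.0368, 0.0394 and 0.0458 with vehicle and 0.0167, 0.0446 and 0.0775 with DS-5272, and these overlapped. Bcl2l11 to Mcl1, both called higher, was 0.0952, 0.0415 and 0.0378 with vehicle and 0.0537, 0.0475 and 0.0644 with DS-5272, and these overlapped too. No test was made on these ratios.

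Of the 16 other genes with BCL2-like names or domains, 9 were tested, and 2 passed the threshold upward, against 24.2% of all genes. These were Bcl2a1b and Bcl2a1d, mouse copies of the pro-survival gene A1, which is a known NF-kB target in myeloid cells. Bcl2a1b went from 0.106, 0.262 and 0.598 FPKM with vehicle to 3.26, 1.84 and 3.60 FPKM with DS-5272, a log2 fold change of 1.55 (SE 0.24, adjusted p = 0.00443). Bcl2a1d went from 0.235, 0.249 and 0.568 FPKM to 1.57, 2.83 and 4.29 FPKM, a log2 fold change of 1.48 (SE 0.27, adjusted p = 0.00724). Both reached the filter only through the DS-5272 samples (means of 0.322 and 0.351 FPKM with vehicle and 2.90 FPKM each with DS-5272), so they had to differ to be tested, and neither their calls nor the count of 2 supports a rise of these genes as a group. The A1 copies are nearly identical, so the share of fragments that belongs to each is uncertain, and Bcl2a1a (up to 0.622 FPKM) and Bcl2a1c (up to 0.0986 FPKM) did not reach the filter. With the block Bnip3l, a mitophagy receptor related to BNIP3, rose as well (adjusted p = 0.231 without and 0.0142 with it). The effector Bok was below 0.4 FPKM in every sample, and Hrk was listed at 0 in all 6.

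Downstream of the membrane pore, 18 genes of the mitochondrial death machinery were all tested, and 3 rose and 3 fell, both below the shares of all genes (24.2% and 22%), with a median log2 fold change of -0.02 (0.04 over all genes). The list as a whole thus did not stand out, and the genes below are given for their own values. With the block Birc2 rose and Endog fell in addition (adjusted p = 0.0337 and 0.0229). Birc3, an inhibitor of apoptosis, rose from 17.1, 19.0 and 17.7 FPKM to 30.4, 34.6 and 56.6 FPKM (log2 fold change 1.08, SE 0.22, adjusted p = 0.00985). The executioner caspase gene Casp6 rose by less (0.39, SE 0.09, adjusted p = 0.0157), a call lost at a common upper quartile (0.26, 0.0894) and total (0.15, 0.448) and without vehicle replicate 1 (0.37, 0.0551) or 3 (0.36, 0.0771). Casp9, the initiator caspase of the apoptosome, rose as well (0.37, SE 0.11, adjusted p = 0.0303), a call lost at a common upper quartile (0.24) and total (0.13, adjusted p = 0.552) and on omission of vehicle replicate 2 (0.33, 0.118), vehicle replicate 3 (0.35, 0.112), DS-5272 replicate 1 (0.34, 0.0647) or DS-5272 replicate 3 (0.34, 0.0597).

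Vdac1, a channel of the outer membrane, fell from 107, 108 and 116 FPKM to 71.5, 85.9 and 75.9 FPKM (log2 fold change -0.51, SE 0.11, adjusted p = 0.0101). Dffb, the nuclease that cleaves DNA in apoptosis, fell (-0.55, SE 0.12, adjusted p = 0.0123), as did Dffa, its chaperone and inhibitor (-0.36, SE 0.11, adjusted p = 0.0351). The Dffb call was lost without vehicle replicate 2 (-0.52, adjusted p = 0.0557) or 3 (-0.52, 0.0558), and that of Dffa with no filter on low FPKM (0.0505) and on omission of vehicle replicate 1 (-0.34, 0.0997), 2 (-0.35, 0.114) or 3 (-0.38, 0.0922) or of DS-5272 replicate 2 (-0.28, 0.0793) or 3 (-0.35, 0.0597). Apaf1, the scaffold of the apoptosome and a p53 target, was at 24.7 to 26.5 FPKM with vehicle and at 26.7, 26.1 and 39.1 FPKM with DS-5272 (adjusted p = 0.273). Cycs, the gene of cytochrome c, did not pass the test (adjusted p = 0.384).

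Of 21 regulators of the members, 20 were tested, and 7 rose and 4 fell, against 24.2% and 22% of all genes, and the median log2 fold change was 0.31 (0.04 over all genes). With the block 10 rose, against 30.3% of all genes, Ddit3, Pim3 and Fbxw7 in addition (adjusted p = 0.00514, 0.00429 and 0.0469). Foxo3, a transcription factor, rose from 12.7 to 14.2 FPKM with vehicle to 23.9, 29.2 and 50.9 FPKM (log2 fold change 1.24, SE 0.26, adjusted p = 0.0102). Pim1, a kinase that acts on BAD, rose from 89.7, 116 and 107 FPKM to 165, 266 and 341 FPKM (1.24, SE 0.26, adjusted p = 0.0107). Both were higher in 3 of 3 DS-5272 samples than in any vehicle sample, and both calls held in all 15 alternatives. The other risers were Hif1a (1.05), Stat3 (0.74), Foxo1 (0.73), Stat5b (0.53) and Rela (0.52). Of these, Hif1a was called in all 15 alternatives and Stat3 in all of the 15 but the common total (0.48, adjusted p = 0.0551). The 15 do not include the added limit of 1 on the log2 fold change, which Stat3, Foxo1, Stat5b and Rela did not reach. Foxo1 was not called without vehicle replicate 2 (0.67, 0.0723), vehicle replicate 3 (0.65, 0.0718) or DS-5272 replicate 3 (0.63, 0.0538). Stat5b was not called without vehicle replicate 1 (0.51, 0.0705), 2 (0.54, 0.0718) or 3 (0.55, 0.0663). Neither was called at the common total, where Foxo1 was at 0.69 (adjusted p = 0.0647) and Stat5b at 0.28 (adjusted p = 0.0558). Rela was the least stable, called in 8 of 15 and lost at the common total (0.25, adjusted p = 0.0570), with no filter on low FPKM (0.0599) and without each single sample but DS-5272 replicate 1 (0.39 to 0.56, adjusted p of 0.0779 to 0.114).

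Trp53, the gene of p53 itself, fell from 84.1, 63.9 and 70.8 FPKM to 41.5, 44.8 and 30.0 FPKM (log2 fold change -0.91, SE 0.18, adjusted p = 0.00863). That is a fall in transcript, and p53 protein was not measured in these files. By western blot the study reported more p53 protein in leukemia cells of mice given DS-5272. Myc fell from 49.5, 45.9 and 50.8 FPKM to 30.2, 26.1 and 10.3 FPKM (-1.23, SE 0.36, adjusted p = 0.0312), a call lost with no filter on low FPKM (0.0627) and without vehicle replicate 1 (-1.21, 0.0787), 2 (-1.27, 0.0768) or 3 (-1.20, 0.0821). Huwe1, a ubiquitin ligase of MCL1, and E2f1 fell by 0.50 and 0.73 on the log2 scale (adjusted p = 0.00652 and 0.0157), E2f1 not without vehicle replicate 2 (-0.71, 0.0569) or 3 (-0.72, 0.0520). Fbxw7, also listed for MCL1 turnover, went the other way (0.40, adjusted p = 0.0512, with the block 0.0469). Usp9x, which removes ubiquitin from MCL1, did not pass the test (adjusted p = 0.722).

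Some regulators shared the low replicate 1 samples of Bbc3, Pmaip1 and Mcl1, and these were chosen after their values were seen. Ddit3 (CHOP), a factor of the stress response that can induce Bbc3 and Bcl2l11, was at 7.22, 29.5 and 48.2 FPKM with vehicle and at 13.7, 64.8 and 69.3 FPKM with DS-5272. Atf4, upstream of Ddit3, was at 107, 202 and 228 FPKM with vehicle and at 98.8, 280 and 290 FPKM with DS-5272. Neither passed the test (adjusted p = 0.438 and 0.705), and of them Ddit3 passed it with the block. The part of these genes in the pattern of the members was not tested.

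Outside the family, 10 p53 targets were examined. Of 8 tested, 2 rose, about the share of all genes (24.2%). Their median log2 fold change was 1.62 (0.04 over all genes), and 7 of the 8 had a positive one. With the block 6 rose, against 30.3% of all genes, and in 7 all DS-5272 values were above all vehicle values, against 32.1%. Cdkn1a, the p21 gene, was at 14.8, 28.1 and 25.5 FPKM with vehicle and at 32.3, 117 and 485 FPKM with DS-5272 (log2 fold change 2.43, SE 0.89, adjusted p = 0.0611, with the block 0.0137). Mdm2 was at 27.1, 36.3 and 40.0 FPKM with vehicle and at 42.6, 78.8 and 210 FPKM with DS-5272 (1.36, SE 0.53, adjusted p = 0.0733, with the block 0.0148). Sesn2 rose by 1.91 (SE 0.33, adjusted p = 0.00593) and Trp53inp1 by 1.85 (SE 0.54, adjusted p = 0.0294) on the log2 scale, the latter not with no filter on low FPKM (0.0614) or without vehicle replicate 1 (2.05, 0.0510), 2 (adjusted p = 0.0844) or 3 (1.69, 0.0848). DS-5272 replicate 3 was the highest sample for Cdkn1a and Mdm2, as it was for Bax, Bbc3, Pmaip1, Bcl2l11 and Mcl1.

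Markers of maturing neutrophils were higher with DS-5272. All 10 were tested, and 8 rose, against 24.2% of all genes, and with the block Ngp and Camp rose too (adjusted p = 0.00240 and 0.0199). Mmp9 rose from 9.93, 41.0 and 41.2 FPKM to 236, 597 and 1097 FPKM (log2 fold change 4.32, adjusted p = 0.00525), and S100a9 by 4.08 (adjusted p = 0.0213), the latter not without DS-5272 replicate 2 (3.89, 0.0612) or 3 (3.54, 0.0658). Lcn2 was the most abundant by the mean over all 6 samples (261, 752 and 841 FPKM with vehicle and 1747, 3076 and 5728 FPKM with DS-5272), though S100a8 and S100a9 exceeded it in DS-5272 replicates 2 and 3. No marker of the list was at 0. The sum of the list was 417, 1857 and 2500 FPKM with vehicle and 4942, 12576 and 21112 FPKM with DS-5272, so vehicle replicate 1 and DS-5272 replicate 1 were the lowest of their groups, as for Mcl1, Bbc3 and Pmaip1, and the DS-5272 samples lay above all vehicle samples. Their part in the result was not tested.

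Some macrophage and erythroid markers were also higher with DS-5272. Of 9 macrophage markers, all tested, 4 rose, against 24.2% of all genes, among them C1qb and C1qc by 2.99 and 2.90 on the log2 scale (adjusted p = 0.00600 and 0.00960). The others were Adgre1 and C1qa, the latter not without vehicle replicate 1 (2.52, 0.0522) or 2 (2.30, 0.0654), and Cd5l rose with the block (adjusted p = 0.0393), with 1.30, 0.242 and 1.64 FPKM with vehicle and 61.7, 1.76 and 4.43 FPKM with DS-5272. Axl, Mertk and Spic reached the filter only through the DS-5272 samples, mostly replicate 1 (12.6, 7.65 and 5.65 FPKM there), so they had to differ to be tested. The call of Spic with the block thus carries no weight (adjusted p = 0.0421; means of 0.179 and 2.32 FPKM with vehicle and DS-5272). Vcam1 was the most abundant of the 9 by the mean over all 6 samples, though Adgre1 exceeded it in DS-5272 replicates 2 and 3. Their sum was 61.1, 85.8 and 116 FPKM with vehicle and 436, 188 and 243 FPKM with DS-5272. Of 8 erythroid markers, 6 had an entry of their own and 3 were tested. Hba-a1, the most abundant in all samples but vehicle replicate 3, and Hba-a2 rose by 3.31 and 3.30 (adjusted p = 0.0175 and 0.0147), Hba-a1 not without vehicle replicate 2 (3.25, 0.0567) or 3 (3.07, 0.0550) and Hba-a2 not without vehicle replicate 2 (3.16, 0.0529). Hba-a2 (0.259 to 0.841 FPKM with vehicle and 4.47 to 55.2 FPKM with DS-5272) and Alas2 also reached the filter only through the DS-5272 samples, so the count of this list carries no weight. The erythroid sum was 4.68, 2.62 and 2.52 FPKM with vehicle and 146, 27.4 and 12.7 FPKM with DS-5272. DS-5272 replicate 1 was the highest sample of both lists, and among the members it was the highest for Bcl2, Bcl2l1, Bak1 and Bmf. Without that sample Bcl2l1 (log2 fold change 0.49, adjusted p = 0.0226) and Bmf (0.84, 0.0458) were called. Both sums were also higher in DS-5272 replicates 2 and 3 than in any vehicle sample, so this omission did not remove the markers. The part of these markers in the result was not tested.

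Markers of lymphocytes were low in all samples. T cell markers summed to 0.430, 0.343 and 0.405 FPKM with vehicle and 3.54, 0.705 and 1.35 FPKM with DS-5272, the most abundant by the mean over all samples being Cd4 (3.28 FPKM in DS-5272 replicate 1), and 0 of the 6 were tested. B cell markers summed to 4.84, 5.02 and 4.29 FPKM with vehicle and 4.29, 4.05 and 3.39 FPKM with DS-5272, nearly all Cd79b, the 1 of 5 tested (adjusted p = 0.121). The 6 NK cell markers, 0 of them tested, summed to 0.550, 0.407 and 0.844 FPKM with vehicle and 2.88, 1.66 and 1.71 FPKM with DS-5272, with Gzma the most abundant. Of the 6 markers of stroma and endothelium, 2 were tested, and Pecam1, the most abundant, rose from 58.8, 28.7 and 26.4 FPKM to 109, 68.3 and 74.5 FPKM (log2 fold change 1.19, adjusted p = 0.0246), a call lost in 7 of 15 alternatives (adjusted p of up to 0.0986), among them omission of DS-5272 replicate 1 (0.99, 0.0592), vehicle replicate 2 (1.04, 0.0844) and vehicle replicate 3 (0.98, 0.0763). With the block Col1a1 rose as well (adjusted p = 0.00397). The sum of that list was 60.6, 31.4 and 29.2 FPKM with vehicle and 112, 73.4 and 81.1 FPKM with DS-5272. Most of it was Pecam1 in each sample, so the sum describes that gene more than the list. Of the untested genes of the list, Cdh5 was at no more than 0.0758 FPKM in any sample. Pdgfrb was lower in each DS-5272 sample than in each vehicle sample (means of 0.0614 and 0.384 FPKM). Cxcl12 and Lepr, also below 1 FPKM in every sample, were higher in each DS-5272 sample. No gene of these 4 lists was at 0 in all samples, and the part of these lists in the results on the members was not tested.

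**Figure D5:**
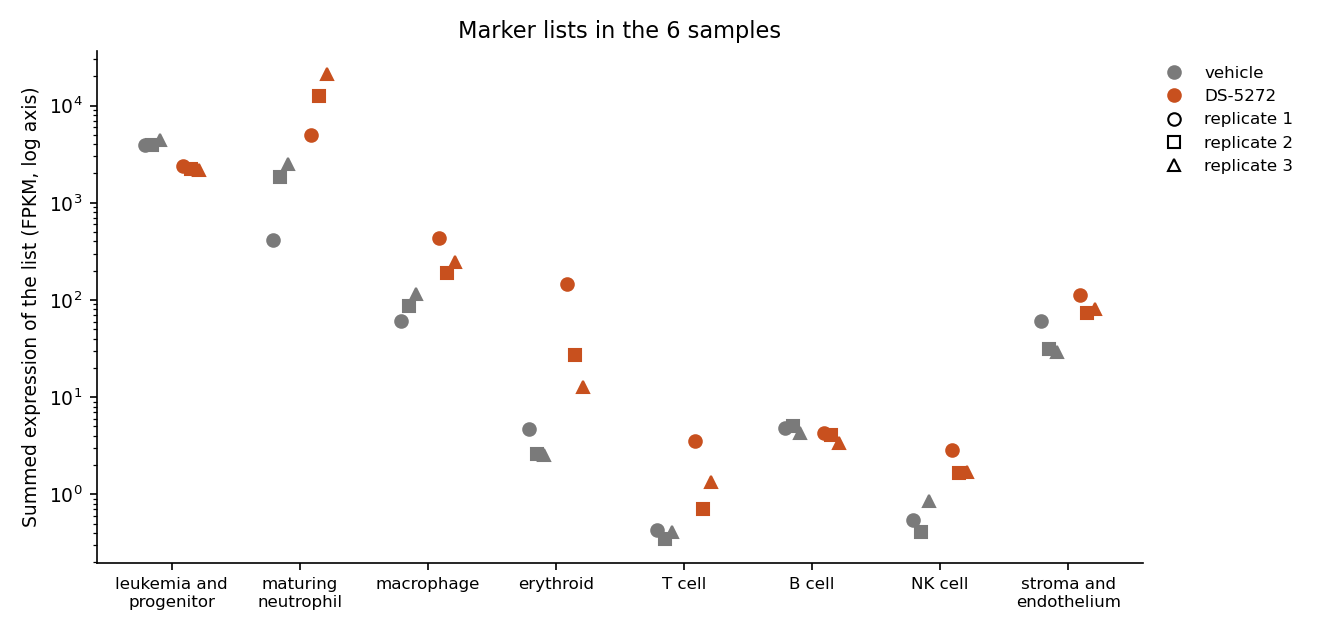
Summed FPKM of each marker list in the 6 samples (log axis), with vehicle in gray, DS-5272 in orange and a marker shape for each replicate number. Maturing neutrophil markers summed to 417 to 2500 FPKM with vehicle and 4942 to 21112 FPKM with DS-5272, while macrophage and erythroid markers were highest in DS-5272 replicate 1.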

How the data were processed

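Strand-specific libraries of total RNA from sorted leukemia cells were sequenced from both ends. Before deposit, the authors trimmed the reads with cutadapt 1.8.1, aligned them to GRCm38 with TopHat2 2.1.1 and derived FPKM with Cufflinks 2.2.1. FPKM are not counts, so no count model was used. The annotation release and strand setting are not given in the sources used here. Entries with the same symbol were summed.

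Vehicle and DS-5272 samples, 3 each by their labels, were compared by limma 3.58.1 in R 4.3.3. The fit (lmFit, then eBayes with the trend option, two-sided) was made on log2(FPKM + 1) over the 11130 genes that averaged 1 FPKM or more. Benjamini-Hochberg adjustment was made over all of them, with a threshold of 0.05. Summaries and plots were made in Python 3.11.15 (numpy 2.4.6, pandas 2.3.3, matplotlib 3.10.9). The genes behind relative depth were those below 0.15 FPKM in all samples.

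The members and the gene lists were chosen with earlier results of these data known. Genes named were the 10 members, the other BCL2-related genes past the threshold, the 2 largest rises and falls past it in each further list, Cdkn1a, Mdm2 and Trp53, the 3 genes most like Bbc3, Bcl2 and Mcl1, and the most abundant markers. All others named were chosen after their values were seen. Hoxa9 and Hoxa10 lie in a joined entry, Adgre1 stood under its older symbol Emr1, and Hbb-bs and Hbb-bt had no entry of their own. Single values of some genes in the lists are not reported here. Gene positions are from GENCODE (GRCm38).

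The sample titles number the replicates 1 to 3 in both groups, and no label says what a number stands for. Deviations from the group means had a correlation of 0.66, 0.21 and 0.43 between the samples numbered 1, 2 and 3 (-0.58 to 0.34 between others). Each exceeded 0.1, the value required, and the numbers were taken as pairing. Vehicle replicate 2 with DS-5272 replicate 3 (0.34) and vehicle replicate 3 with DS-5272 replicate 2 (0.18) exceeded it too. The check thus set the samples numbered 1 apart but cannot show that those numbered 2 and 3 are pairs. Results with the block and differences within replicate numbers rest on the numbers in the titles. The fit without a block is reported, as the study compared unpaired groups. Other settings tried were a pseudocount of 0.1, leaving the low genes in, a minimum mean of 5 FPKM, 3 rescalings (common upper quartile, common total or TPM, quantile normalization), the replicate number as a block, eBayes with no trend, an added limit of 1 on the log2 fold change, omission of each sample in turn and, chosen after seeing the data, the highest entry of a symbol instead of the sum.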

Additional observations from a re-analysis of the deposited data

How the results depend on the processing

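The 4 upregulated members became 1 at a common total (TPM), where upregulated genes went from 2697 to 1717, and ranged from 1 to 6 when 1 sample was left out. A log2 fold change of at least 1 left 978 upregulated and 621 downregulated genes and 3 upregulated members, without Bcl2l1. That limit was applied to these counts only and is not among the alternatives counted for single genes. Leaving out 1 sample gave 1654 to 2920 upregulated and 1404 to 2446 downregulated genes (2451 with all samples), the fewest in both directions without vehicle replicate 2. Limma called 0 members downregulated in all alternatives, and 0 members were lower at an unadjusted p under 0.05. The replicate block gave 3367 upregulated and 2771 downregulated genes and 5 upregulated members, and it changed the call of Bbc3 and of no other member.

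Bak1 turned to -0.11 at the common total and -0.14 with quantile normalization. Bid turned to -0.11 at the common upper quartile, -0.23 at the common total and -0.10 with quantile normalization, and ranged from -0.0328 to 0.124 when 1 sample was left out. The difference in the pro-death to pro-survival ratio (-0.69) was 0.15 without Mcl1, 0.0122 with geometric means of FPKM + 1, and -0.89 to -0.28 when 1 sample was left out. The cause was not tested. With a mean of at least 5 FPKM, Bcl2, Bmf, Bcl2a1b and Bcl2a1d gave no value. With the highest entry of a symbol, chosen after seeing the data, 4 members were called, against 24.3% of all genes called higher. Depth was lower in every DS-5272 sample, and FPKM gave no counting error for genes of low level such as Bcl2 and Bmf.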
